A study of Homo sapiens with 24 samples.

Results

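Untreated AC16 cells labelled T16 were compared with untreated AC16 cells labelled T0, 3 arrays against 3, which is 6 of the 24 arrays of the series, and the arrays were chosen by their titles alone. AC16 is an established human cell line derived in part from adult ventricular cardiomyocytes. All cells of the series were exposed to 100 nM dexamethasone, a synthetic glucocorticoid, for 2 h to synchronize them and were then washed. T0 cells were collected after that synchronization and T16 cells 16 h later, and neither group received digoxin or vehicle. The other 18 arrays form 6 groups of 3, given vehicle, 0.5 µM digoxin or 5 µM digoxin and labelled T4 or T20. Of these, the T4 vehicle and T20 vehicle arrays were used here for side values. They differ from the untreated arrays in both time label and vehicle, and these cannot be told apart. The labels place both vehicle groups 4 h after treatment, whereas the growth protocol gives 4, 16 and 20 h after treatment. The question set by the comparison is how the RNA of these cells differed between the end of synchronization and 16 h later. No group without dexamethasone is among the 24 arrays, so the levels before synchronization were not measured.

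A glucocorticoid binds its receptor, which moves to the nucleus and switches target genes on, among them the clock gene PER1, and such a pulse sets the circadian clocks of cultured cells to a common phase. In the clock, BMAL1 and CLOCK activate the period, cryptochrome and DEC genes, whose proteins repress BMAL1 and CLOCK in turn. A further loop runs through the REV-ERB receptors NR1D1 and NR1D2, which repress BMAL1, and the ROR receptors, which activate it. In heart cells the same clock times genes of metabolism and of ion handling.

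Each array gave log2 values for 352859 probe sets at the level of exons. A gene's value was the median of the probe sets listed for that symbol alone, after quantile normalization between arrays. This gave 22260 genes with a median of 10 probe sets each, of which 11911 passed a filter on low values, set at a group mean of 6.02 on the log2 scale in at least 1 of the 8 groups. The deposited log2 scale ran from 1.28 to 19.93, wider than a scanner's range, so differences are given on that scale as T16 minus T0 and not as linear folds. Correlations between arrays of a group ran from 0.9851 to 0.9883 and those between a T0 and a T16 array from 0.9787 to 0.9838. Added poly-A control RNAs averaged 11.62 at T0 and 11.91 at T16, a difference of 0.29, and for several gene lists the count with arrays centred on these controls is given beside the main one. The labels do not say whether the 3 arrays of a group came from separate cultures, and if they did not, the p-values rest on technical spread alone.

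Of the cardiomyocyte markers, 6 of 31 on the array passed the filter, and the mean over the list ran from 4.76 to 4.88 at T0 and from 4.83 to 4.92 at T16. The defining sarcomere genes TNNT2, MYH6, MYH7 and ACTN2 averaged 3.71, 2.81, 3.76 and 3.69 at T0, all below the filter. These transcripts therefore did not mark the cells as cardiomyocytes in either group. Among the fibroblast markers, 15 of 19 passed the filter, with a list mean from 9.88 to 10.01 at T0 and from 10.66 to 10.84 at T16. Of the smooth muscle markers, 7 of 14 passed, with a list mean from 6.26 to 6.45 at T0 and from 6.41 to 6.62 at T16. None of the 12 leukocyte markers on the array and 2 of 13 endothelial markers passed.

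Promoters of the clock genes that differed between T0 and T16 are shown for the members whose window holds a match to a known clock element, since these genes moved in opposite directions. Each window covers 250 bases before to 50 after the RefSeq start of the gene on GRCh38.p14, written 5′ to 3′ on the gene's strand. Capitals mark an E-box, CACGTG, the site of BMAL1 and CLOCK, in PER1, BHLHE40, BHLHE41 and the output factor TEF. In PER2 and PER3 they mark a D-box, TTANGTAA, the site of the PAR bZIP factors and of NFIL3, and in BMAL1 a ROR element, GGTCA after an A, any 2 bases, a T and any base, the site of the ROR and REV-ERB receptors.
BMAL1: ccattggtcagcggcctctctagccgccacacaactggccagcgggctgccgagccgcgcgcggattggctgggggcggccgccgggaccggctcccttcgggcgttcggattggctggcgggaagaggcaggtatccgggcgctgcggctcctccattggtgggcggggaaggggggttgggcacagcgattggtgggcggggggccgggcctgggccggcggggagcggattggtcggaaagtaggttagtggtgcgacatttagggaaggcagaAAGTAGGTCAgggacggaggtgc
PER1: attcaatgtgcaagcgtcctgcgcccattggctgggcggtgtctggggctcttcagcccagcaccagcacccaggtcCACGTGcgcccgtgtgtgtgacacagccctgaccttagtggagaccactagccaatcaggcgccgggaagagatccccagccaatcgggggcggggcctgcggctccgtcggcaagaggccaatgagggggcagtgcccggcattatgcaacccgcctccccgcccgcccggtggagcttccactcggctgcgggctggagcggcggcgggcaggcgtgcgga
BHLHE40: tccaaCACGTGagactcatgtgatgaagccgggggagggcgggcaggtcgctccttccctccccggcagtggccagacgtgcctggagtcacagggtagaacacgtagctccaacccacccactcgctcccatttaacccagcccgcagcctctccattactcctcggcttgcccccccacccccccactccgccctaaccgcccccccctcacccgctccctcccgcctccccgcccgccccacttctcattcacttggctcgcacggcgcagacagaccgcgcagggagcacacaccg
BHLHE41: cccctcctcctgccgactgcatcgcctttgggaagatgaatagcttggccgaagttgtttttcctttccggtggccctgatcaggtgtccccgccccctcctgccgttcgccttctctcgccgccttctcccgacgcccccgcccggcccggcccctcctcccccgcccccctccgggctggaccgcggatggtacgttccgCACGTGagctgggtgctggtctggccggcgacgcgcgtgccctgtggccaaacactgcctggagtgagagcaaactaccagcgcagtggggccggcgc
TEF: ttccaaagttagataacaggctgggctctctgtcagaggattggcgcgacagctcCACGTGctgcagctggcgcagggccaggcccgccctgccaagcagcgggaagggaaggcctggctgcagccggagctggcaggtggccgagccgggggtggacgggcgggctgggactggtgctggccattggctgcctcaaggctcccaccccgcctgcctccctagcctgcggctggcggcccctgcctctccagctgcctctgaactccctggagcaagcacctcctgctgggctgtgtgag
PER2: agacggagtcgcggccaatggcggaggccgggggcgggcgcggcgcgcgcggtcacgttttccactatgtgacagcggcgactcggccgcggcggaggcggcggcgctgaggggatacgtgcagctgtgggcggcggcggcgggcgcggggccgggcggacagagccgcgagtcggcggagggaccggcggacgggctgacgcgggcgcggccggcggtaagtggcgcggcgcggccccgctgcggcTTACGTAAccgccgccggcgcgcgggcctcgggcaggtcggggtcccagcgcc
PER3: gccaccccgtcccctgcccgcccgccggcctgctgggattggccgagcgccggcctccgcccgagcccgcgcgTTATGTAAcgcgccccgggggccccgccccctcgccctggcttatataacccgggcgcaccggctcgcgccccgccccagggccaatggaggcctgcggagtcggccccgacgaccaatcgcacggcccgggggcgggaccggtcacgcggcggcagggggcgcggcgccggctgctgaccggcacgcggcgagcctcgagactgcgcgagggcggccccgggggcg
The windows lie at chr11:13277540.0-13277839.0 on the plus strand for BMAL1, chr17:8152355.0-8152654.0 on the minus strand for PER1, and chr3:4979187.0-4979486.0 on the plus strand for BHLHE40. They lie at chr12:26124988.0-26125287.0 on the minus strand for BHLHE41, chr22:41367205.0-41367504.0 on the plus strand for TEF, chr2:238288561.0-238288860.0 on the minus strand for PER2, and chr1:7784041.0-7784340.0 on the plus strand for PER3. Counted from the start site, the matches begin at position -173 in PER1, -245 in BHLHE40, -48 in BHLHE41, -195 in TEF, -3 in PER2, -177 in PER3 and 28 in BMAL1. Both strands were searched, and the windows of CRY1, NR1D1, NR1D2 and NFIL3 held none of these letters. An exact CACGTG was in 7.44% of 27303 promoter windows of this length, the D-box letters in 2.25% and the ROR letters in 2.1%. Of the windows of the 8 clock repressors, 4 held the E-box. Among genes tested, 10.46% of 9274 windows held it, compared with 13.49% of the 719 windows of genes lower at T16 and 7.71% of the 597 windows of genes higher at T16. A match of letters is a description of the window and not a shown binding site.

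Across all genes, 1628 of 11911 differed between T16 and T0 in limma's moderated test at a Benjamini-Hochberg adjusted p under 0.05, which is 13.7% of genes tested. Of these, 724 were higher at T16 (6.08%) and 904 were lower (7.59%), and the median difference of all genes was -0.02. Differences of at least 1 on the log2 scale were found for 321 of the higher and 449 of the lower genes, and of at least 2 for 35 and 84. Larger differences were thus mostly decreases. In 1579 of the 1628 genes the 3 arrays of T0 and the 3 of T16 did not overlap. The same held for 3514 of all 11911 genes tested, called or not. When arrays were centred on the poly-A controls instead, 254 genes were higher and 1658 lower, and the median of all genes stood at -0.27. The values as deposited gave 771 higher and 751 lower, and cyclic loess gave 794 and 846. Which direction held more genes thus depended on the normalization. Without T16 replicate 3, 1061 genes passed (468 higher and 593 lower), and without T16 replicate 1 there were 466 higher. Median polish over probe sets in place of their median gave 3716 genes.

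**Figure D1:**
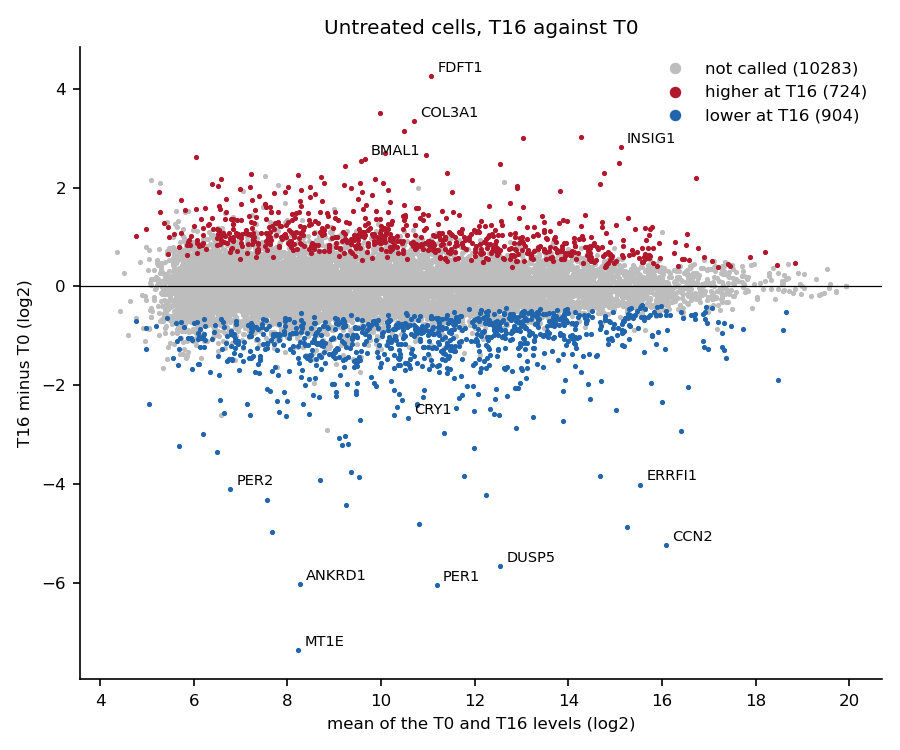
Difference between T16 and T0 (log2, y axis) against the mean of the T0 and T16 levels (log2, x axis) for each of the 11911 genes tested, with genes called higher in red (724), called lower in blue (904) and the others in grey. The largest decreases, such as MT1E at -7.37 and PER1 at -6.04, exceed the largest increase, FDFT1 at 4.27, though MT1E was below the filter at T16.

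Clock activator and repressor genes differed in opposite directions. BMAL1, the activator, was higher at T16, while PER1, PER2, PER3, CRY1, BHLHE40 and BHLHE41 were lower. BMAL1 (also called ARNTL) read 8.46, 8.47 and 8.17 at T0 and 10.26, 11.07 and 11.48 at T16. The groups were separate, and the difference was 2.57 (SE 0.28, 95% interval 1.98 to 3.17, adjusted p = 2.56e-06), with 26 of its 27 probe sets in that direction. Its partner CLOCK read 13.53, 13.43 and 13.60 at T0 and 13.66, 13.89 and 14.00 at T16, and did not pass (0.33, 95% interval 0.01 to 0.66, adjusted p = 0.175). The paralogs NPAS2 (0.34, 95% interval -0.56 to 1.23) and BMAL2 (-0.16, 95% interval -0.84 to 0.53) did not pass either, and their arrays overlapped. In bulk RNA, fewer cells that express a gene and less RNA per cell cannot be told apart.

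PER1, a period gene that glucocorticoids induce directly, read 14.26, 13.89 and 14.47 at T0 and 8.14, 7.51 and 8.85 at T16. It stood at 7.40 in T4 vehicle cells, so its level was also low in the group labelled 4 h. The T16 minus T0 difference of -6.04 (SE 0.36, adjusted p = 2.88e-10) was the second largest decrease among the named genes, and 22 of 22 probe sets fell. PER2 read 8.69, 9.11 and 8.70 at T0 and 4.54, 5.30 and 4.34 at T16, a difference of -4.11 (SE 0.45, adjusted p = 2.54e-06). All 3 T16 arrays were below the filter of 6.02, so the size of that difference is uncertain. Unlike PER1, PER2 averaged 8.03 in T4 vehicle cells and 7.71 in T20 vehicle cells, so its T16 level was the lowest of the 4 groups without digoxin.

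CRY1, a cryptochrome that closes the negative arm, showed the same order. It read 12.14, 11.78 and 11.81 at T0 and 9.11, 9.10 and 9.52 at T16 (difference -2.67, SE 0.21, adjusted p = 2.27e-08), with averages of 11.80 in T4 vehicle and 11.04 in T20 vehicle cells. PER3 read 10.06, 9.73 and 9.18 at T0 and 7.35, 7.21 and 7.81 at T16 (difference -2.20, SE 0.37, adjusted p = 0.000341). The DEC repressors, which compete with BMAL1 and CLOCK for the E-box, were lower too. BHLHE40 (DEC1) read 15.24, 15.17 and 15.80 at T0 against 13.83, 13.35 and 13.13 at T16, and BHLHE41 (DEC2) read 8.35, 7.64 and 8.54 against 6.57, 6.50 and 6.26. Their differences were -1.97 (SE 0.23, adjusted p = 5.18e-06) and -1.73 (SE 0.21, adjusted p = 6.74e-06), and no T16 array reached the T0 arrays. CRY2 (-0.45, adjusted p = 0.0966) and CIART (-0.69, adjusted p = 0.138) were the members that did not pass, so 6 of the 8 repressors fell and none rose, beside the 7.59% of all genes that were lower. These 6 calls remained without any single array of the comparison, and all 8 repressors were lower with arrays centred on the poly-A controls.

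The REV-ERB receptors diverged from each other. NR1D1 read 7.93, 7.31 and 7.50 at T0 and 9.45, 8.97 and 9.77 at T16, a rise of 1.82 (SE 0.27, adjusted p = 0.000113), and it averaged only 4.57 in T4 vehicle and 7.32 in T20 vehicle cells. NR1D2 read 12.52, 12.75 and 13.01 at T0 and 11.73, 11.53 and 11.98 at T16, a difference of -1.01 (SE 0.24, adjusted p = 0.00651), with 10.51 in T4 vehicle cells. For both receptors the T4 vehicle level was the lowest of the 4 groups. The ROR receptors RORA (4.91 at T0, 4.63 at T16) and RORB (4.09 and 3.95) were below the filter.

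Of the output factors that bind the D-box, the repressor NFIL3 read 13.28, 13.38 and 13.33 at T0 and 12.79, 12.49 and 12.54 at T16 (difference -0.72, adjusted p = 0.00498). TEF, an activator, averaged below the filter in both groups and differed by -0.64 (adjusted p = 0.0233), a call that was lost without T0 replicate 2, T0 replicate 3, T16 replicate 2 or T16 replicate 3. DBP, the third factor tested, spread widely at T16 with 9.40, 8.01 and 9.01 against 9.20, 9.13 and 9.48 at T0 and did not pass (-0.46, adjusted p = 0.341), and only 3 of its 6 probe sets fell. Its level in T4 vehicle cells was 7.38, below both. Of the kinases, ligase parts and partners of clock proteins, 1 of 9 passed, or 11.1%, near the 13.7% of all genes called. It was CSNK1D at -0.64 (adjusted p = 0.0219, lost without T0 replicate 2, T0 replicate 3, T16 replicate 1 or T16 replicate 3).

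**Figure D2:**
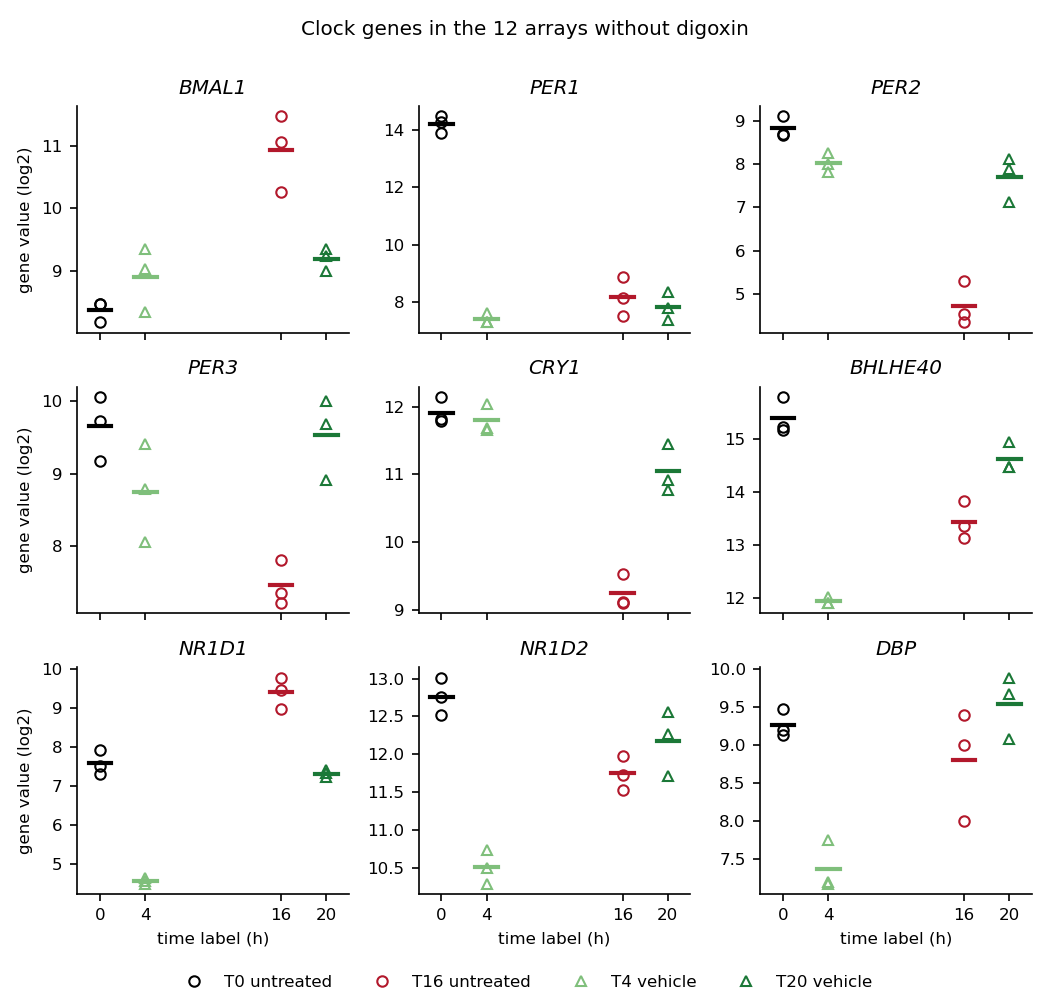
Gene values (log2, y axis) of 9 clock genes in the 12 arrays without digoxin, by time label (h, x axis), with circles for untreated cells (T0 black, T16 red), triangles for vehicle cells (T4 light green, T20 dark green) and bars at group means. BMAL1 and NR1D1 stand highest at T16, where PER2, PER3 and CRY1 stand lowest, whereas PER1 is high at T0 alone.

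T20 vehicle against T4 vehicle is another later-against-earlier comparison that shares no array with T16 against T0. In it 227 genes were higher (1.91%) and 152 lower (1.28%) of the same 11911. Genes higher in both comparisons numbered 102, which is 14.1% of those higher at T16 and 44.9% of those higher at T20. Genes lower in both numbered 55, 6.1% of the genes lower at T16 and 36.2% of those lower at T20, and 22 were lower at T16 and higher at T20. Among genes that differed by at least 1, 71 of 321 higher genes rose in the vehicle comparison too and 0 fell, while 37 of 449 lower genes fell there and 16 rose. BHLHE40 was such a gene, at 2.70 (adjusted p = 3.44e-07) in the vehicle comparison against -1.97 here, and BMAL1 differed by 0.29 there (adjusted p = 0.656).

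Most tested genes known to be induced by glucocorticoids were lower at T16. Of 35 on the array, 25 were tested, 15 fell and 0 rose, with a median difference of -1.57 beside -0.02 over all genes. The share of all genes that fell was 7.59%. Over the 21 alternatives in processing and arrays, the list median ran from -2.13 to -0.47. Members not tested were below the filter, among them TSC22D3 (5.88 at T0, 5.23 at T16), PDK4 (4.67 and 4.74), ZBTB16 (3.91 and 3.82) and FAM107A (5.30 and 5.28). ERRFI1, a feedback inhibitor of the EGF receptor, read 17.46, 17.67 and 17.47 at T0 and 13.58, 13.60 and 13.39 at T16. The groups were far apart for the spread within them, and the difference was -4.01 (SE 0.15, adjusted p = 7.38e-13). DUSP1, the phosphatase that switches off MAP kinases, read 17.51, 17.63 and 17.89 at T0 against 12.88, 13.24 and 12.31 at T16 (-4.87, SE 0.22, adjusted p = 3.7e-12). SLC19A2, a thiamine transporter, read 13.31, 13.08 and 13.29 against 8.49, 8.51 and 8.23 (-4.82, SE 0.28, adjusted p = 2.61e-10).

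IRS2, an adaptor of the insulin receptor measured by 2 probe sets, read 10.53, 11.18 and 10.94 at T0 and 7.68, 7.58 and 7.81 at T16 (-3.19, adjusted p = 2.88e-10). TIPARP, an ADP-ribosyltransferase, fell by 2.49 (adjusted p = 6.54e-09), and KLF9, a transcription factor that glucocorticoids raise in many cells, fell by 2.97 (adjusted p = 8.38e-08). Most of these genes were also low in T4 vehicle cells, with means of 13.48 for ERRFI1, 13.23 for DUSP1, 8.98 for SLC19A2, 6.99 for IRS2 and 8.72 for KLF9. Not every target followed. FKBP5, a chaperone of the glucocorticoid receptor and a standard target, averaged 14.34 at T0 and 14.21 at T16 (-0.13, adjusted p = 0.741), and 15.36 in T4 vehicle cells. It was singled out after its values were seen. None of the 7 tested genes of the receptor and its chaperones, NR3C1 included, passed in limma's test in either direction, and 0 were higher and 1 lower at an unadjusted p under 0.05.

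Immediate early genes, which growth factors and stress switch on without new protein, gave the largest count of decreases of any list. Of 34 tested, 24 fell and 1 rose, beside 7.59% of all genes lower and 6.08% higher, and the median difference was -1.26. DUSP5, a nuclear phosphatase of ERK, read 15.36, 15.47 and 15.28 at T0 and 9.51, 10.02 and 9.59 at T16 (-5.66, SE 0.31, adjusted p = 6.7e-11). CCN2 (CTGF), a matricellular protein and a target of YAP, read 18.51, 18.56 and 19.02 against 13.44, 13.59 and 13.33 (-5.24, SE 0.22, adjusted p = 2.97e-12). KLF10, a transcription factor that TGF-beta induces, read 16.51, 16.40 and 16.91 against 12.84, 12.76 and 12.71 (-3.84, SE 0.18, adjusted p = 4.74e-12). In each of these genes the lowest T0 array was above the highest T16 array.

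FOSB, a partner of the JUN proteins in AP-1, fell by 3.36 (adjusted p = 1.8e-08) to a T16 mean of 4.81, and SRF, the factor that drives many of these genes, differed by -2.58 (adjusted p = 1.16e-06). CSRNP1, a nuclear transcription factor outside that list, read 9.85, 9.90 and 9.45 at T0 and 5.09, 6.00 and 5.16 at T16 (-4.32, SE 0.33, adjusted p = 1.65e-08). For FOSB and CSRNP1 every T16 array was below the filter, so the sizes of their decreases are uncertain. The best known members FOS (-0.27, adjusted p = 0.688) and JUN (-0.21, adjusted p = 0.601) did not pass, and FOS was below the filter in both groups with means of 5.12 and 4.85. KLF2, at 0.80 (adjusted p = 0.0451), was the single riser, a call lost whichever of the 6 arrays was left out. FOS, JUN and KLF2 were singled out after their values were seen.

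**Figure D3:**
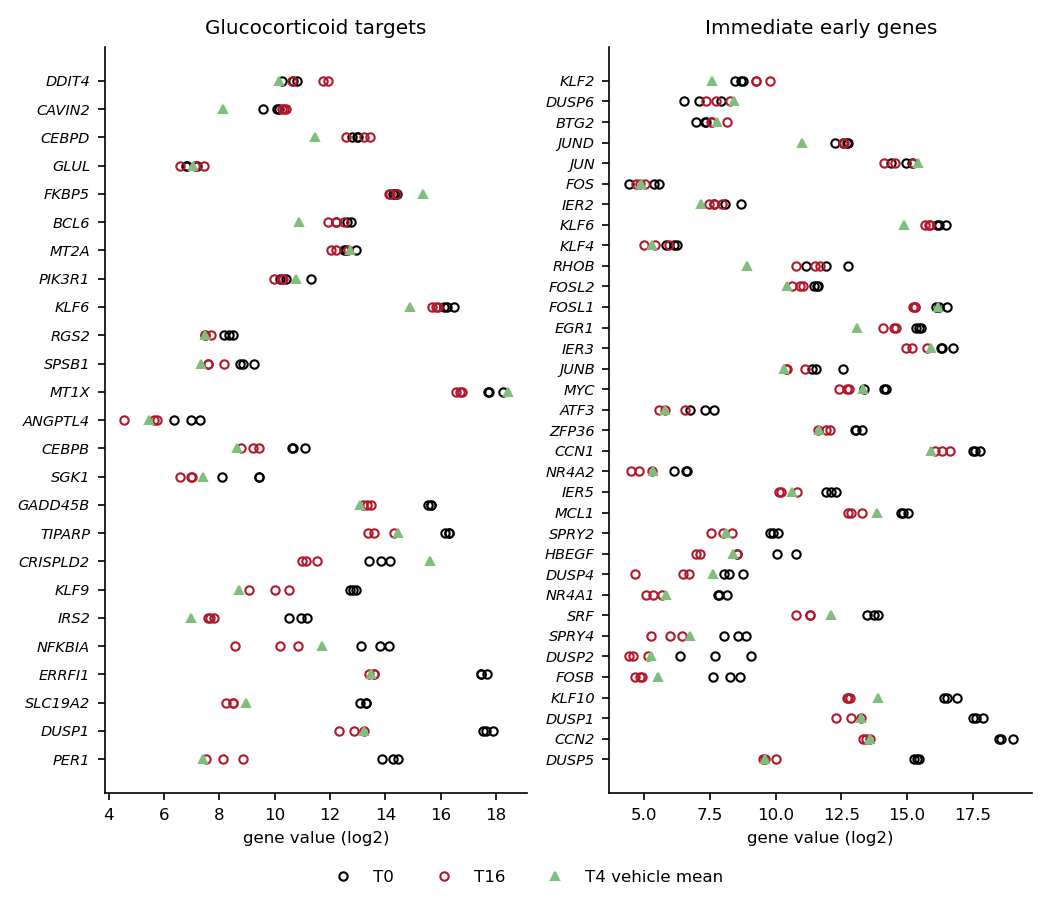
Gene values (log2, x axis) of the 25 glucocorticoid targets (left) and 34 immediate early genes (right) tested, with the 3 T0 arrays in black, the 3 T16 arrays in red and the T4 vehicle mean as a green triangle. DUSP5, CCN2, DUSP1 and PER1 at the bottom show the widest gaps between T0 and T16, and their T4 vehicle means lie near the T16 arrays.

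Of 29 targets of YAP and SRF and genes of the cytoskeleton tested, 6 fell and 2 rose, and the median was -0.03. Of all genes, 7.59% were lower and 6.08% higher, so the rises were near that background. ANKRD1, a nuclear and sarcomeric ankyrin repeat protein, read 11.15, 11.20 and 11.48 at T0 and 5.60, 5.32 and 4.83 at T16 (-6.02, SE 0.27, adjusted p = 3.06e-12). CCN1 (-1.27), LATS2 (-1.46) and FHL2 (-1.58) were lower as well. HES1, a main target of Notch, read 10.15, 9.79 and 10.53 against 5.18, 4.90 and 5.46 (-4.98, SE 0.26, adjusted p = 4.27e-11), and its T4 vehicle mean of 6.84 lay between the groups. ANKRD1 and HES1 were below the filter in all 3 T16 arrays, so the sizes of both decreases are uncertain.

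Of 27 genes of TGF-beta and BMP signalling, 10 fell and 2 rose, with a median of -0.40. The shares of all genes were 7.59% lower and 6.08% higher, and the rises were near the latter. The targets ID1 and ID3, which block differentiation factors, fell by 2.94 and 2.10, and the feedback inhibitors SMAD7 and SKIL by 2.54 and 1.82 (adjusted p from 2.79e-08 for ID1 to 3.86e-05 for ID3). ID1 read 17.83, 18.27 and 17.54 at T0 and 14.74, 15.34 and 14.75 at T16. The receptor TGFBR2 (-1.19) and the activin trap FST (-1.55) were also lower. BMP4, singled out after its values were seen, went the other way at 1.67 (SE 0.38, adjusted p = 0.00544).

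Cytokines and regulators under NF-kB were lower at T16 at several members. Of 29 tested, 9 fell and 3 rose, beside 7.59% of all genes lower and 6.08% higher, and the median was -0.48. LIF, a cytokine of the IL-6 family, read 11.43, 11.32 and 11.65 at T0 and 7.24, 6.75 and 7.12 at T16 (-4.43, SE 0.30, adjusted p = 2.82e-09). IL24 read 14.22, 14.69 and 14.16 against 10.41, 10.08 and 9.91 (-4.22, SE 0.19, adjusted p = 3.06e-12). The inhibitors NFKBIA (-3.84) and TNFAIP3 (-2.19), the chemokine CCL20 (-3.22, below the filter at T16 with a mean of 4.08) and the cytokine IL11 (-2.59) fell as well, with adjusted p from 1.03e-06 for NFKBIA to 9.67e-06 for TNFAIP3. NFKBIA, which glucocorticoids also induce, spread from 8.55 to 10.83 over the T16 arrays. Median polish gave smaller decreases for NFKBIA (-2.51), CCL20 (-1.83) and IL11 (-1.46). NFKBIZ, singled out after its values were seen, was higher by 1.32 (adjusted p = 0.00434).

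The lowest T16 minus T0 difference among the named genes was that of MT1E, a metallothionein that binds zinc and that both metals and glucocorticoids induce. It read 11.75, 11.61 and 12.38 at T0 and 5.87, 3.87 and 3.90 at T16 (-7.37, SE 0.49, 95% interval -8.40 to -6.34, adjusted p = 2.33e-09) over 3 probe sets. All 3 T16 arrays were below the filter, so the size of the decrease and its rank are uncertain. T4 vehicle cells stood between at 8.62. Metallothionein genes are near copies of each other, so how their signals divide is uncertain. Of the 12 metallothionein and zinc genes tested, 6 fell and 0 rose, beside 7.59% of all genes lower. The zinc exporter SLC30A1 fell by 2.64 (adjusted p = 4.3e-09), MT1X by 1.22 and the zinc sensor MTF1 by 1.03. MT2A averaged 12.68 at T0 and 12.30 at T16 and did not pass (adjusted p = 0.186), but 1 of its 2 probe sets sat at the top of the scale, so a change could be hidden there.

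Genes of sterol synthesis rose together at T16. Of 24 tested, 19 rose and 2 fell, 87.5% called, the largest share of any list with 10 or more genes tested, with a median difference of 1.54 beside -0.02 for all genes and the 6.08% called higher. These genes share the SREBP2 factor, which is released when cell sterol is low. HMGCS1, which makes HMG-CoA at the head of the pathway, read 12.95, 12.84 and 12.50 at T0 and 15.74, 15.37 and 16.24 at T16 (3.02, SE 0.25, adjusted p = 4.91e-08). MVD, the last enzyme of the mevalonate part, read 8.88, 8.83 and 9.02 against 11.97, 11.83 and 12.36 (3.14, SE 0.29, adjusted p = 1.87e-07). No T0 array reached a T16 array in either gene.

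FDFT1, squalene synthase, read 8.64, 9.25 and 8.92 at T0 and 13.52, 12.81 and 13.28 at T16. Its difference of 4.27 (SE 0.34, adjusted p = 1.94e-08) was the largest rise among the named genes, but median polish gave 1.79, so its size depends on how its 21 probe sets are combined. SQLE, which oxidizes squalene at a rate-limiting step, read 13.63, 13.67 and 13.56 against 16.08, 15.76 and 15.93 (2.30, SE 0.17, adjusted p = 5.49e-09). DHCR7, which makes cholesterol from its last precursor, read 9.33, 9.65 and 9.88 against 12.26, 12.28 and 12.31 (2.67, SE 0.21, adjusted p = 1.88e-08). INSIG1, the sensor that holds SREBP in the endoplasmic reticulum and is itself a target, read 13.74, 13.18 and 14.19 against 16.40, 16.44 and 16.74 (2.82, SE 0.28, adjusted p = 5.46e-07).

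The other 13 risers lay between 0.77 for NSDHL and 2.50 for MSMO1, and they include SREBF2 itself at 1.50 (SE 0.25, adjusted p = 0.000312). The 2 genes that fell serve sterol export, ABCA1 at the cell surface (-0.80, adjusted p = 0.0197) and NPC1 in the lysosome (-0.58, adjusted p = 0.0379). NSDHL, MSMO1, SREBF2, ABCA1 and NPC1 were singled out after their values were seen. Without 1 array of the comparison, 17 to 18 of the genes rose and 0 to 2 fell. The call of ABCA1 was lost without T0 replicate 3 or T16 replicate 1, that of NSDHL without T0 replicate 1 or 2 or T16 replicate 2 or 3, and that of NPC1 without any array but T0 replicate 1. Of 30 genes listed for this pathway, 4 were not analysed here. HSD17B7 (2.26) has a near-identical pseudogene, so its reading is uncertain.

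The rise was shared by the vehicle comparison, in which 17 of the 24 genes were higher at T20 than at T4 and 0 lower. Of all genes, 1.91% were higher there. DHCR7 differed there by 3.42, HMGCS1 by 3.26, INSIG1 by 3.10 and MVD by 2.89 (adjusted p from 2.88e-09 for DHCR7 to 2.91e-06 for MVD). HSD17B7 (0.83, adjusted p = 0.247) did not pass there. Of 22 sterol gene promoters in RefSeq, 1 held TCACNCCAC, the core of a sterol element, and that was SREBF2 at position -133. The same letters were in 1.15% of all windows.

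Genes of fatty acid synthesis were higher in part. Of 18 genes tested, 8 rose and 1 fell, beside 6.08% of all genes higher and 7.59% lower, with a median of 0.65. SCD, the desaturase that makes oleate, read 15.73, 15.61 and 15.56 at T0 and 17.99, 17.60 and 17.90 at T16 (2.20, SE 0.16, adjusted p = 5.49e-09). FASN, fatty acid synthase, read 8.55, 8.75 and 9.02 against 10.99, 10.72 and 11.15 (2.18, SE 0.20, adjusted p = 2.12e-07). FADS2, which desaturates polyunsaturated fatty acids, read 8.65, 8.23 and 9.31 against 11.52, 11.42 and 11.36 (2.70, SE 0.31, adjusted p = 3.41e-06), and median polish gave 1.28. ME1 (1.11), ACLY (0.90) and ACSL3 (0.88), which supply reducing power, acetyl-CoA and acyl-CoA, were higher as well. SREBF1, singled out after its values were seen, stayed near the filter at 6.36 and 6.07 and did not pass (adjusted p = 0.609). Genes of fatty acid oxidation gave 1 of 15 higher and 1 lower, 13.3% called and near the 13.7% of all genes. Of the oxidative phosphorylation genes, 0 of 29 passed in limma's test, with 3 higher and 0 lower at an unadjusted p under 0.05.

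**Figure D4:**
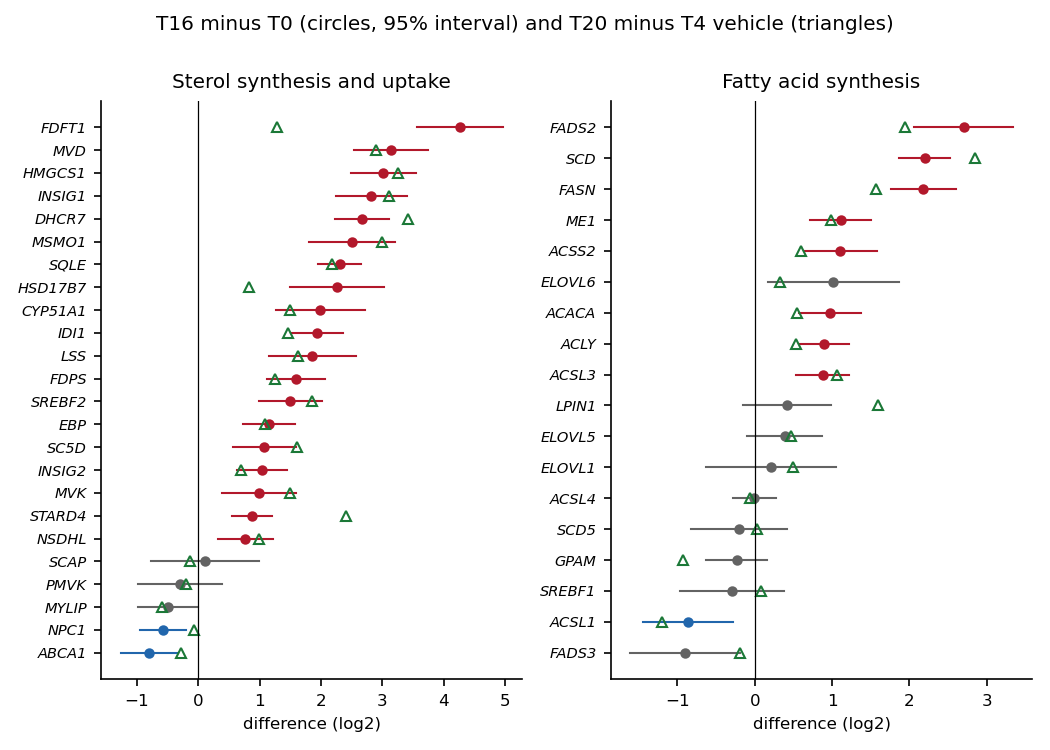
Difference in log2 (x axis) for the 24 sterol genes (left) and 18 fatty acid synthesis genes (right) tested, with T16 minus T0 as circles with 95% intervals (red higher, blue lower, grey not called) and T20 minus T4 vehicle as open triangles. Triangles of HMGCS1, INSIG1 and MVD lie within the intervals of the circles, and that of FDFT1 lies at 1.28, far below its circle at 4.27.

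Of 38 matrix genes tested, 12 rose and 5 fell at T16, and the median was 0.45. The shares of all genes were 6.08% higher and 7.59% lower. With arrays centred on the poly-A controls 8 rose and 6 fell, and the median was 0.19. Several fibrillar collagens were among those that rose. COL3A1 read 8.96, 9.07 and 9.06 at T0 and 12.59, 12.11 and 12.42 at T16 (3.34, SE 0.31, adjusted p = 1.92e-07; 2.11 by median polish). COL1A2 read 11.44, 11.65 and 11.50 against 14.86, 14.12 and 14.61 (3.00, SE 0.25, adjusted p = 3.41e-08). The collagen-binding proteoglycan LUM read 13.75, 13.55 and 13.60 against 16.03, 15.10 and 16.00 (2.08, adjusted p = 1.8e-06), and COL5A2 rose by 2.15 (1.26 by median polish). T0 and T16 arrays were separate in all 4 genes.

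The 5 genes that fell in that list included the plasminogen activator PLAT (-1.91, adjusted p = 1.5e-06; -1.23 by median polish) and the matricellular protein THBS1 (-2.04, adjusted p = 6.5e-07). Fibroblast markers overlap this list in several collagens, and 6 of 15 rose and 0 fell, beside 6.08% of all genes higher. PDGFRB, the PDGF receptor of mesenchymal cells, was among them at 2.43 (7.97, 7.88 and 8.20 against 10.39, 10.49 and 10.47, adjusted p = 1.04e-07). In the vehicle comparison the same 15 markers gave 6 higher and 0 lower, beside 1.91% of all genes higher there. COL3A1 differed by 2.44 (adjusted p = 6.39e-05) and PDGFRB by 2.00 (adjusted p = 8.7e-06).

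Genes that build ribosomes were lower at T16. Of 29 tested, 17 fell and 0 rose, beside 7.59% of all genes lower, with a median of -0.90. NIP7, needed for pre-rRNA processing, read 14.22, 14.60 and 14.71 at T0 and 13.21, 13.04 and 12.82 at T16 (-1.49, SE 0.15, adjusted p = 7.17e-07). BYSL, of the small subunit's assembly, fell by 1.67 (adjusted p = 2.63e-05), PNO1 by 1.42 (adjusted p = 0.00031) and the RNA polymerase I and III subunit POLR1C by 1.55 (adjusted p = 0.000221). The transcription factor MYC, which drives these genes in many cells, read 13.37, 14.20 and 14.12 against 12.79, 12.42 and 12.73 (-1.25, SE 0.23, adjusted p = 0.00091). Among the ribosomal proteins themselves 7 of 28 fell and 0 rose with a median of -0.38, led by RPS4X at -1.28 (adjusted p = 0.000439; -0.47 by median polish), of whose 7 probe sets some sat at the top of the scale. That count rested on single arrays, since leaving out 1 array gave from 1 to 7.

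ATF4 targets, which serve amino acid supply under stress, were lower at 9 of 32 and higher at 1, beside 7.59% and 6.08% of all genes. ATF4 read 15.15, 15.68 and 15.48 at T0 and 14.01, 14.64 and 14.16 at T16 (-1.16, SE 0.17, adjusted p = 0.000108). PPP1R15A, which restores translation after stress, fell by 2.51 (adjusted p = 1.26e-07), and the amino acid carriers SLC3A2 (-2.12) and SLC7A5 (-1.28) were lower. Endoplasmic reticulum genes were mixed, with 4 of 24 higher and 2 lower, or 2 and 2 after poly-A centring. The count of 2 lower was near the share of all genes. HSPA5, the main chaperone of that compartment, rose by 0.59 (adjusted p = 0.00694), while HERPUD1 fell by 1.50 (adjusted p = 4.81e-05).

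Regulators of the cell cycle changed at particular members. CDKN2B, an inhibitor of CDK4 and CDK6, read 8.22, 7.72 and 8.94 at T0 and 11.28, 10.41 and 10.81 at T16 (2.54, SE 0.40, adjusted p = 0.000196). CDKN1B, the inhibitor p27, read 13.39, 12.61 and 13.13 against 14.16, 14.15 and 14.16 (1.11, adjusted p = 0.000704), and CDKN2C rose by 1.00. Cyclin D1 (CCND1) read 11.52, 12.07 and 12.44 against 8.98, 10.77 and 9.59 (-2.23, SE 0.48, adjusted p = 0.0034; -1.44 by median polish). The stress gene GADD45A fell by 2.72 and the phosphatase CDC25A by 1.23. Of 29 CDK inhibitor and p53 genes tested, 7 rose and 6 fell, so the list as a whole had no single direction. The shares of all genes were 6.08% higher and 7.59% lower. Leaving out 1 array left from 3 to 5 higher and from 3 to 5 lower whichever of the 6 it was, and poly-A centring gave 3 higher and 6 lower.

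Mitotic genes gave 7 of 40 higher and 0 lower, beside 6.08% of all genes higher. Their median was 0.28, or 0.02 when arrays were centred on the poly-A controls. PTTG1, the securin that holds sister chromatids, read 9.63, 9.28 and 9.62 at T0 and 10.92, 10.49 and 10.92 at T16 (1.27, SE 0.26, adjusted p = 0.00245), and the kinesin KIF20A rose by 0.94 (adjusted p = 0.00107). Leaving out 1 array gave from 2 to 5 higher, and poly-A centring gave 2 higher and 2 lower. Of the 44 genes of G1/S and replication, 5 fell and 0 rose with a median of 0. That is 11.4%, near the 7.59% of all genes that were lower, but poly-A centring gave 13 lower. Beside these, 5 of 17 histone genes fell, led by H2BC3 at -2.01 (adjusted p = 8.88e-07). Histone genes are near copies of each other, so their readings are uncertain.

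Of 16 genes of quiescence and of the FOXO factors tested, 4 rose and 2 fell, and the median was 0.09. The shares of all genes were 6.08% higher and 7.59% lower. Leaving out 1 array gave from 2 to 4 higher, and poly-A centring gave 2 higher and 2 lower. The list held the second largest rise among the named genes. ARRDC3, an arrestin-like protein, read 8.37, 8.57 and 7.71 at T0 and 12.12, 11.22 and 11.84 at T16 (3.51, SE 0.29, adjusted p = 4.91e-08), and its T4 vehicle mean was 11.54. PNRC1 rose by 0.98 (adjusted p = 0.00276), whereas IRS2 and KLF9, also in that list, fell. KBTBD7, an adaptor of a ubiquitin ligase, was a weaker call. It read 4.90, 5.28 and 4.05, below the filter, against 6.88, 6.35 and 8.85 (2.62, SE 0.62, adjusted p = 0.00744), and it was lost without T16 replicate 3 (1.87) and by median polish (0.87).

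Interferon-stimulated genes were higher at 4 of 19 and lower at 0, beside 6.08% of all genes higher, with a median of 0.48. The count was 1 to 3 when any 1 array was left out and 2 after poly-A centring. OASL, an OAS-like protein, read 9.95, 9.96 and 9.49 at T0 and 11.56, 11.09 and 10.99 at T16 (1.41, SE 0.30, adjusted p = 0.00319). OAS1 (1.02), below the filter at T0, lost its call without T16 replicate 1. STAT2 lost its call without T0 replicate 2 or 3 or T16 replicate 1 or 3, and OAS3 without any array but T0 replicate 2. Of 21 apoptosis genes, 5 fell and 1 rose, beside 7.59% of all genes lower and 6.08% higher. Those that fell included both protectors and a sensitizer, with MCL1 at -1.90 (adjusted p = 1.04e-05), BCL2 at -1.48 (adjusted p = 0.000128), BCL2L1 by a smaller step (adjusted p = 0.00291) and PMAIP1 at -1.60 (adjusted p = 1.41e-05). Growth signals gave 7 of 27 lower, beside 7.59% of all genes, and 3 higher. The count of lower genes was 4 to 7 without 1 array, 3 on the 6 untreated arrays alone and 11 after poly-A centring. Lower members were DKK1 (-1.23), a Wnt inhibitor, WNT5A (-1.10), FGF5 (-0.87) and KITLG (-1.07).

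Several lists stood near or below the background of 13.7% of genes called in either direction. Glycolysis and hypoxia genes gave 1 of 38 called, the proteasome 1 of 31, autophagy and the lysosome 4 of 29, heat shock 2 of 19, NRF2 targets 3 of 20 and calcium handling 3 of 19. Of the sodium pump genes, whose ATPase is the target of digoxin in the other arrays of the series, 1 of 12 passed, the regulator FXYD5 at -1.12 (adjusted p = 0.0261), a call lost without T0 replicate 2, T0 replicate 3, T16 replicate 1 or T16 replicate 3. Splicing factors gave 2 of 28 higher and 4 lower, or 21.4% called, with from 0 to 2 higher and from 2 to 4 lower without 1 array. Among the lower genes was SRSF5 at -0.97 (adjusted p = 0.000547; -0.15 by median polish).

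**Figure D5:**
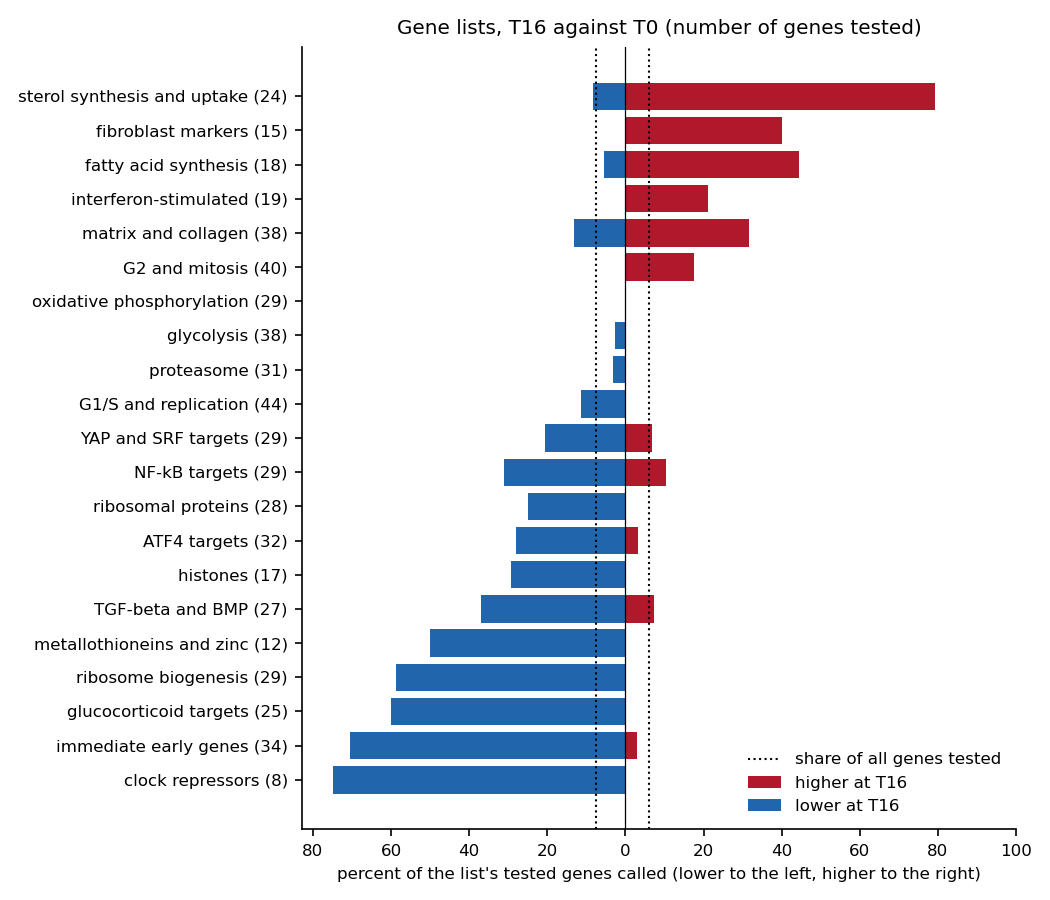
Percent of each list's tested genes called higher (red, to the right) and lower (blue, to the left) at T16, with the number tested in parentheses and dotted lines at the 6.08% and 7.59% of all genes. Sterol genes lead on the higher side with 19 of 24, and clock repressors (6 of 8) and immediate early genes (24 of 34) on the lower side.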

How the data were processed

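Each of the 24 samples of AC16 RNA was measured on its own Human Gene 2.0 ST array after amplification and labelling. Per the labels' design text, the authors normalized the arrays by Robust Multi-array Average in the GIANT tools and named limma, and the deposited values are log2 values per probe set, and the sources used here give no versions. The 259224 probe sets listed with exactly 1 symbol were used, older symbols were updated through RefSeq (1726), and probe sets with several symbols (13116) or no listing (80519) were left out. Values were quantile normalized, a gene took the median of its probe sets, and genes whose highest group mean reached 6.02 entered a linear model (limma 3.58.1, R 4.3.3) over all 24 arrays (16 residual and 4.01 prior degrees of freedom), two-sided, with Benjamini-Hochberg adjustment. The number of arrays limits the precision, with a median SE of 0.263. On simulated data over 11911 genes, 67 genes were changed by 1 and 66 by 2, and 52.2% and 90.9% of them were recovered. Of the calls there, 3.8% were false. Far fewer genes were changed in that simulation than the 1628 called in the data, and recovery at that larger share was not simulated. Named genes were the 12 largest increases and 12 largest decreases among called genes with 3 or more probe sets and no overlap between groups (unnamed loci, small RNAs, olfactory and antisense genes passed over), all clock list members, and up to 6 called members of each other list by adjusted p. Members and lists were chosen with earlier results of these data known. No pairing was used, since the labels do not say what a replicate number marks. Same-numbered T0 and T16 arrays did not deviate together (correlations of -0.009, -0.025 and -0.031). Promoter windows came from RefSeq on GRCh38.p14. Figures were drawn with matplotlib 3.10.9.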

Additional observations from a re-analysis of the deposited data

How the results depend on the processing

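Against 1628 genes (724 higher, 904 lower), combining probe sets by median polish gave 3716 (1754 higher, 1962 lower) and by their mean 3119 (1488 and 1631), a fit on the 6 untreated arrays alone gave 654 (262 and 392), a test against a difference of 1 gave 103 (25 and 78), and centring on the poly-A controls gave 254 higher and 1658 lower. Leaving out 1 array gave from 1061 to 1431 genes, from 466 to 604 higher and from 593 to 827 lower, with the lowest count without T16 replicate 3. The values as deposited gave 771 higher and 751 lower, so the small excess of decreases did not hold there. Of those called in the main setting, 1426 were called by median polish and 1158 after poly-A centring. For T20 vehicle against T4 vehicle, with 379 genes (227 higher, 152 lower), median polish gave 1656 (783 and 873), and leaving out 1 array gave from 227 to 274 genes, from 135 to 154 higher and from 84 to 124 lower. The cause of these shifts was not tested, except that fewer arrays enter the smaller fits. With the replicate number as a block, 1561 and 355 genes were called, and the numbers were not shown to pair the arrays. No named called gene reversed its direction under the 21 alternatives. Several of these could not reverse one, since they change only the filter, the estimate of spread or the test and leave a gene's difference as it was. Of 166 named genes that were called, 120 kept the call without each single array of the comparison, and 46 lost it without at least 1. These limits fall mostly on differences below 1. On simulated data at n = 3, with far fewer genes changed than were called here, 10.4% of changes of 0.5 were found.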

Other observations

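Several genes outside the lists also separated T0 from T16, and all were picked after their values were seen. Complement C1S, a protease of the classical pathway, averaged 10.25 at T0 and 12.55 at T16 (2.30, SE 0.47, adjusted p = 0.0023). Its T0 arrays spread widely, at 11.46, 10.54 and 8.75. C1R averaged 4.84 and 6.60 (1.76, SE 0.48, adjusted p = 0.0181). At T0 C1R was below the filter of 6.02, and its call was lost without T0 replicate 1, T0 replicate 3 or T16 replicate 3. Both were higher under 7 ways of scaling and combining probe sets, over which C1S ran from 1.28 to 2.33 and C1R from 0.85 to 1.77. The butyrophilins BTN3A2 and BTN3A3, which present to gamma delta T cells, were higher by 2.07 (adjusted p = 0.00176) and 2.27 (adjusted p = 0.00385), but as near copies their readings are uncertain, and BTN3A2 was below the filter at T0 with a mean of 5.35. PIM1, a serine kinase, averaged 11.29 at T0 and 13.78 at T16 (2.49, SE 0.29, adjusted p = 6.32e-06). The cytokine cardiotrophin 1 (CTF1) averaged 8.99 and 11.09 (2.10, SE 0.22, adjusted p = 1.41e-06), and it was higher at T20 vehicle than at T4 vehicle too (1.43, adjusted p = 0.000577).

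Among lower genes of this kind, SERPINB2, an inhibitor of plasminogen activators, differed by -3.21 (SE 0.70, adjusted p = 0.00404). SERPINB2 spread widely at T0, with 8.86, 12.41 and 11.03 against 7.91, 7.04 and 7.73 at T16. The mean of its probe sets gave -2.01. NAB2, a corepressor of EGR1, differed by -2.70 (SE 0.28, adjusted p = 9e-07), and the kinase SIK1 by -2.63 (SE 0.37, adjusted p = 5.21e-05). TGFB2 fell by 1.19 at T16 (adjusted p = 5.32e-05) and differed by 1.04 the other way between T20 vehicle and T4 vehicle (adjusted p = 0.000851). IL6 was similar, with -0.82 (adjusted p = 0.00531) here and 1.19 there (adjusted p = 0.000658). No explanation of these opposite directions was tested.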
